A study of Homo sapiens with 3 samples.

Results

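MYC peaks at the ends of long noncoding RNA (lncRNA) genes numbered 562 of the 9818 peaks (5.72%) in the deposited list of MYC binding sites in U2OS, an established human osteosarcoma cell line. A peak was included when its summit, the position of highest signal, lay within 1000 bp of either end of a RefSeq lncRNA gene and over 1000 bp from both ends of every protein-coding gene. The list was made by ChIP-Rx, chromatin immunoprecipitation followed by sequencing with chromatin of another species mixed in as an external reference. Per the labels, the U2OS cells were parental, formaldehyde-fixed mouse NIH3T3 fibroblasts made up the reference at 10%, and no drug, genotype change or time course is named. The series holds 2 libraries made with an anti-MYC antibody, labelled biological replicates, and 1 input library made without antibody. The files analysed give 1 value per peak and none per library, so the read depth is unknown, replicate error could not be computed, and every result below is a description with no test between samples. Intervals given with shares are Wilson 95% intervals over peaks, genes or promoters, and those with medians are 95% order-statistic intervals. Peaks are not independent replicates, and these intervals cover counting error only.

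MYC is a transcription factor that pairs with MAX and binds the E-box, the palindrome CACGTG, mostly in open promoters rich in CpG dinucleotides. Long noncoding RNA genes are transcribed by RNA polymerase II like protein-coding genes and often share promoters with them. Some host small nucleolar RNAs or microRNAs in their introns, some act in the nucleus as RNA, and many are known only as annotated transcripts.

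The promoters printed first carry the main findings. They are RefSeq sequences on GRCh38.p14 that run from 250 bases before to 50 bases after an annotated start of the lncRNA gene, and each holds the MYC summit itself. Capitals mark CACGTG and the related CACGCG or its reverse complement CGCGTG, searched on both strands. SNHG16 (chr17:76557514-76557813, plus strand) and LOC107984948 (chr1:44030164-44030463, plus strand) are shown as the strongest members, by −log10 q, whose window held the summit. The first has 1 CGCGTG and the second 1 CACGTG.
SNHG16: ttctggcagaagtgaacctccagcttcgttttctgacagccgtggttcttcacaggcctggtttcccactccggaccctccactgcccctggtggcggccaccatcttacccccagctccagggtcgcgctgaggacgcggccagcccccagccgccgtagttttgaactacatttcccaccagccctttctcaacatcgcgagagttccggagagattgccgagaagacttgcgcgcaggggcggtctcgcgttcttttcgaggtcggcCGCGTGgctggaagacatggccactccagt
LOC107984948: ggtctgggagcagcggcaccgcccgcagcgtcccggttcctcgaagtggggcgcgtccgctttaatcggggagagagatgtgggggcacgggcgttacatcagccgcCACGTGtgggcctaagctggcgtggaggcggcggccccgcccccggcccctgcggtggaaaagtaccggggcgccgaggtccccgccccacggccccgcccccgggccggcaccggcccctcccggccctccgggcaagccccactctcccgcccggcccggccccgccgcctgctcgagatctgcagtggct

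FIRRE (chrX:131830594-131830893, minus strand) is shown because its E-box lay at the summit in a promoter poor in CpG. MALAT1 (chr11:65497488-65497787, plus strand) and NORAD (chr20:36050911-36051210, minus strand) are shown as widely studied lncRNA genes with different motifs, 2 CACGCG or CGCGTG in the first and 1 CACGTG in the second.
FIRRE: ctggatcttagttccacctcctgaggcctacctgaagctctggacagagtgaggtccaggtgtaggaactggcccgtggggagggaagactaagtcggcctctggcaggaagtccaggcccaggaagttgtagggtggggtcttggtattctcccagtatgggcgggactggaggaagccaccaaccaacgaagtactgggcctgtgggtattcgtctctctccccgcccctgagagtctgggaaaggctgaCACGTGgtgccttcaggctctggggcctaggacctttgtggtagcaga
MALAT1: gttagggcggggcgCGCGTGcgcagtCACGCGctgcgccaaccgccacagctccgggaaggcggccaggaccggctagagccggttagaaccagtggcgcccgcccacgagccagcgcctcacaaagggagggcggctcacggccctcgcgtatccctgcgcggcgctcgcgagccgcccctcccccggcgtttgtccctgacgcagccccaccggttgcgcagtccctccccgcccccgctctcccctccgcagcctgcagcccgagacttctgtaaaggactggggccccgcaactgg
NORAD: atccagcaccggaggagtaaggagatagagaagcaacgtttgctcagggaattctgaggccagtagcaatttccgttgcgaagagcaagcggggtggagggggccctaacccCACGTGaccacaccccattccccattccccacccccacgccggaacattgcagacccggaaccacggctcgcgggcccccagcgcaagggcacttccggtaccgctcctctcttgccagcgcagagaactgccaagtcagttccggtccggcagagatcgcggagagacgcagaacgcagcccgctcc

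TAF12-DT (chr1:28643006-28643305, plus strand) and LOC105372817 (chr21:42879462-42879761, plus strand) are shown because each of their summits also lay near an annotated start of a protein-coding transcript. The first holds 1 CACGTG and the second none of the marked motifs.
TAF12-DT: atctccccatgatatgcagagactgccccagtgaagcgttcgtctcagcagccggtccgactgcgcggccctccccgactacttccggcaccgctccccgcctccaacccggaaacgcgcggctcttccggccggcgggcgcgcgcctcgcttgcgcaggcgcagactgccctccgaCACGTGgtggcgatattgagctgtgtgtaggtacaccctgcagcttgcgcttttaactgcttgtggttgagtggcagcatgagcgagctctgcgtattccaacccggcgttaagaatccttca
LOC105372817: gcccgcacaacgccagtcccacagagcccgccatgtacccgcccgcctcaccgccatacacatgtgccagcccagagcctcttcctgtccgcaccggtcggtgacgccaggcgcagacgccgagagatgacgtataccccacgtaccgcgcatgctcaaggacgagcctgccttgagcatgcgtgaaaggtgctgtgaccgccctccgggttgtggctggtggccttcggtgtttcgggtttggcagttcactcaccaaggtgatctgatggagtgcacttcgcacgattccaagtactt

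The 562 peaks were nearly as high as those at protein-coding gene ends. Fold enrichment, the ratio of immunoprecipitated to control signal at the summit as the authors deposited it, had a median of 7.60 (interval 7.30 to 8.01, quartiles 5.48 and 11.1). The median was 8.16 (8.04 to 8.30) for the 6387 peaks at protein-coding ends and 6.87 (6.66 to 7.04) for the 1761 distal peaks, which had no gene end within 5000 bp. Folds of lncRNA peaks ran from 2.52 to 59.5. A fold of at least 10 was reached by 173 peaks (30.8%, 27.1 to 34.7), beside 32.6% of all peaks, 36.2% at protein-coding ends and 23.2% of distal peaks. A fold of at least 20 was reached by 33 (5.87%), beside 6.97% of all peaks. The share of high peaks therefore lay near that of the whole list at both values. Among the 500 strongest peaks of the list by −log10 q, where q is the caller's p-value after correction, 26 lay at lncRNA ends. These are 4.63% of the lncRNA peaks, beside 5.09% of all peaks. The median width was 755 bp, between 814 bp at protein-coding ends and 559 bp for distal peaks.

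**Figure D1:**
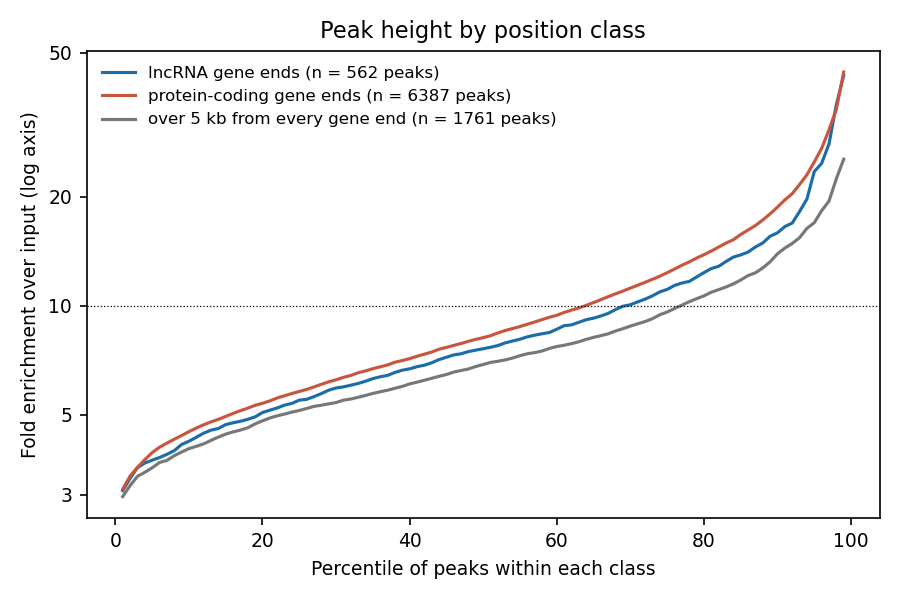
Fold enrichment over input (log axis) at each percentile of peaks within 3 position classes, 562 peaks at lncRNA gene ends, 6387 at protein-coding gene ends and 1761 distal peaks. The lncRNA curve runs between the other curves over most of its length, and the dotted line marks a fold of 10.

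Summits gathered at the 5′ ends of the genes. Strand, taken from the RefSeq promoter table, was known for the lncRNA gene with the nearest end in 434 of the 562 cases. In 411 of these the other end of the gene was out of reach of the 1000 bp window, and 371 of the 411 summits (90.3%, 87.0 to 92.8) lay at the 5′ end. At protein-coding ends, measured in the same way, the share was 98.2% (5209 of 5307). The median distance to the 5′ end was 183 bp, and 134 of the 371 summits lay within 100 bp of it. They fell on both sides, with 173 of 371 (46.6%, 41.6 to 51.7) inside the gene. The 40 summits at 3′ ends were spread more widely, with a median distance of 462 bp and 2 within 100 bp. Their median fold was 6.95 (quartiles 5.11 and 10.5), beside 7.70 (5.57 and 11.3) at 5′ ends, so the quartiles overlapped widely. Without peaks within 1000 bp of a protein-coding start the medians were 7.38 at 3′ ends and 7.58 at 5′ ends. Of these 40 summits 36 were over 1000 bp from every lncRNA or protein-coding start in the table, which is not complete. LOC101927723 (chr2:68361966-68362464, fold 24.6, −log10 q 271) was the strongest of the 40.

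**Figure D2:**
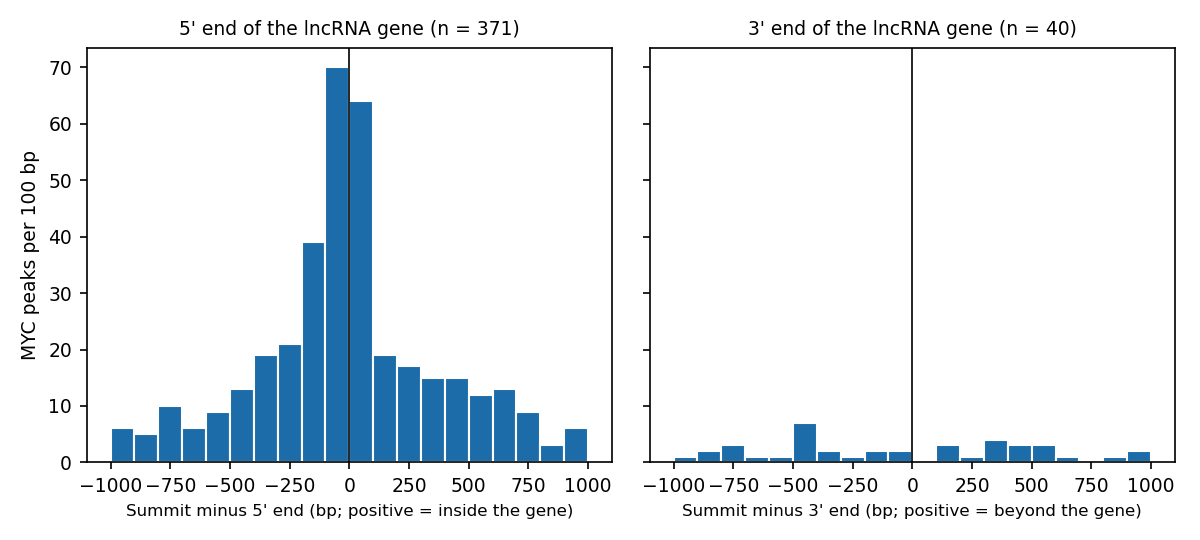
Number of MYC peaks per 100 bp by distance of the summit from the nearest end of the lncRNA gene, for 371 peaks at 5′ ends (left) and 40 at 3′ ends (right). The 5′ panel peaks beside 0, with 70 peaks in the 100 bp before the end and 64 in the 100 bp after it, while the 3′ panel shows no bin above 7.

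The 562 peaks touched 596 of 18177 lncRNA genes (3.28%), and 44 peaks lay at the ends of more than 1 such gene. Another 1394 peaks lay at an lncRNA end but also at a protein-coding end and are outside the definition. With these counted, 1997 lncRNA genes (11%) had a summit at an end. The definition took different parts of each naming class. Genes named as divergent transcripts (symbol ending in -DT), which start head to head with a named neighbour, had a summit in 355 of 591 cases (60.1%), but only 14 of them (2.37%) kept one away from protein-coding ends. Antisense genes (symbol with -AS) had a summit in 477 of 2045 cases (23.3%) and one away from protein-coding ends in 152 (7.43%). For intergenic genes with a LINC symbol the corresponding counts were 134 and 108 of 2306 (5.81% and 4.68%). For genes with a provisional LOC symbol they were 872 and 246 of 12316 (7.08% and 2%). The strongest peaks of genes in these 4 classes had median folds between 7.11 and 7.69, all near the median of 7.68 over the 596 genes. The 10 genes with an SNHG symbol, the small nucleolar RNA host class, had a median of 26.8. The lower quartile of their folds, 19.6, exceeded the upper quartile of 11.2 over the 596 genes.

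**Figure D3:**
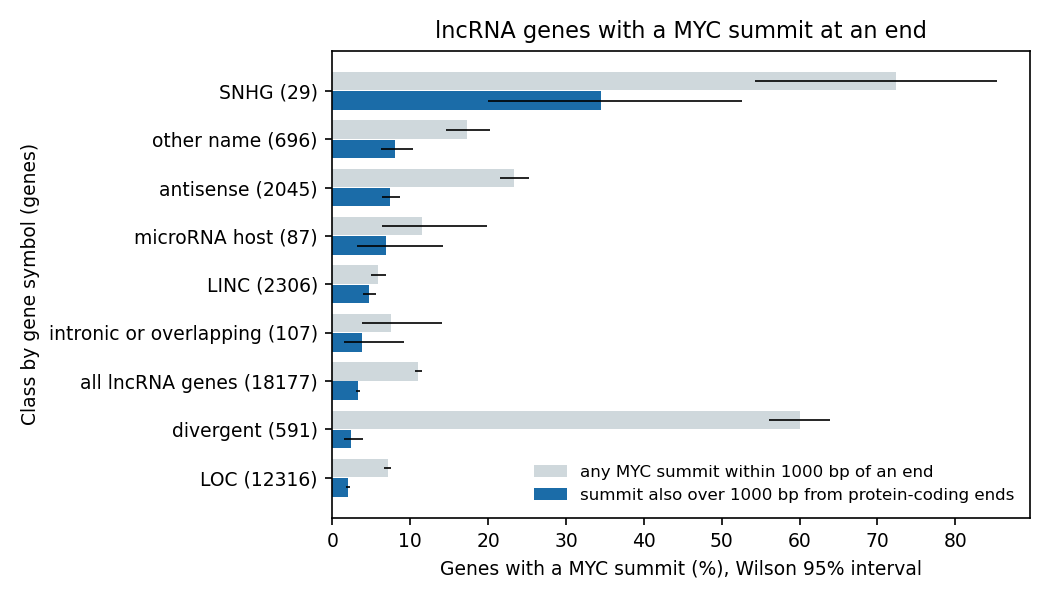
Percentage of lncRNA genes in each class of symbol with a MYC summit within 1000 bp of an end (grey) and with such a summit that is also over 1000 bp from protein-coding ends (blue), with Wilson 95% intervals and the number of genes in brackets. The bars of divergent genes differ most, at 60.1% and 2.37%.

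Small nucleolar RNA host genes carry in their introns the RNAs that guide chemical modification of ribosomal RNA. Their peaks had the highest median fold of the 3 gene lists described here. Of 33 such genes, the SNHG symbols with GAS5, DANCR, ZFAS1 and EPB41L4A-AS1 added, 12 had a peak of the class described here, beside 3.28% of all lncRNA genes. All 12 had folds above 10, from 13.8 to 59.5, with a median of 25.4. SNHG26 had the highest fold and the highest −log10 q (59.5 and 1017, chr7:22853988-22855175), with the summit 85 bp inside its 5′ end. SNHG16 followed (chr17:76557057-76558763, fold 42.8, −log10 q 944), and its summit lay 4 bp from the 5′ end, inside the window printed above. SNHG15 (chr7:44985930-44987178, fold 36.5), SNHG8 (chr4:118278238-118279635, fold 43.9) and SNHG17 (chr20:38434587-38435688, fold 25.0) came next by −log10 q among these 12. The summit of SNHG8 was 1068 bp from the end of PRSS12 and so only just counted as away from a protein-coding gene. SNHG25 (27.9), SNHG29 (25.7), EPB41L4A-AS1 (22.7), SNHG5 (17.8), DANCR (17.7), SNHG21 (14.4) and SNHG11 (13.8) complete the 12, with folds in brackets.

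Another 12 host genes had a summit that lay at a protein-coding end too, and 9 had none within 1000 bp. Folds of these other 12 ran from 6.75 at SNHG31 to 109 at SNHG7, with a median of 24.6, and 2 of them were below 10. For 2 of the 9 a summit lay a short way past the limit. GAS5 and SNHG12 each held 1 summit inside the gene, at 1315 and 1079 bp from an end, with folds of 15.3 and 18.7. The summit in GAS5 also lay 352 bp from a protein-coding end. SNHG14, also of the 9, held 2 summits inside its span, but none closer than 19748 bp to an end. Of all 562 peaks, 7 lay at the end of a small nucleolar RNA gene (1.25%, 0.605 to 2.55), beside 0.360% of peaks at protein-coding ends, and 6 of those 7 were at the host genes SNHG15, SNHG8, SNHG25, EPB41L4A-AS1, DANCR and SNHG29.

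Of 87 genes with a microRNA host symbol, 6 had a peak of the class (6.90%, 3.20 to 14.2), beside 3.28% of lncRNA genes. Most lncRNA genes have LOC symbols, and the share was 8.05% (56 of 696) for genes whose names fit none of the symbol classes. The microRNA host share was therefore not above that of other named genes. MIRLET7A1HG, which holds let-7a-1, let-7f-1 and let-7d, had a fold of 44.0 (chr9:94165584-94167302, −log10 q 437). MIRLET7IHG, which holds let-7i, had a fold of 26.8 (chr12:62602183-62603937, −log10 q 360). The other 4 were MIR762HG (15.6), MIR34AHG (8.36), MIR4458HG (8.29) and MIR130AHG (3.57). In all 6 the summit was nearest the 5′ end, at 4 to 314 bp. The mature sequences below are shown because 3 of the 6 bound hosts carry microRNAs with 1 shared seed. Over all 87 hosts that seed was found in 7, so 4 of the 7 had no such peak. These 4, MIRLET7BHG, MIR99AHG, MIR100HG and MIR4500HG, had no summit within 1000 bp of an end, and the summit nearest to MIRLET7BHG was 8703 bp from it. The seed, bases 2 to 8 from the 5′ end and the part that pairs with target messages, is in capitals. The let-7 family represses growth-related messages, among them that of MYC.
hsa-let-7a-5p: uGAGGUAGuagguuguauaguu
hsa-let-7f-5p: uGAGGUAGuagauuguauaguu
hsa-let-7d-5p: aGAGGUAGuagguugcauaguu
hsa-let-7i-5p: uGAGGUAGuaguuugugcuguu
hsa-miR-4458: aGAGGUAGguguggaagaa
hsa-miR-34a-5p: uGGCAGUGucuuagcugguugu
The first 5 share the seed GAGGUAG and lie in MIRLET7A1HG (chromosome 9), MIRLET7IHG (chromosome 12) and MIR4458HG (chromosome 5). The mature microRNA of MIR34AHG, a p53-induced gene, has another seed.

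MIR17HG, the host of the miR-17-92 cluster and a known MYC target, did not count. Its annotated span (chr13:91347687-91354577) held 1 summit, with a fold of 25.9, at 1367 bp from an end. MIR1915HG was similar, with a summit of fold 22.3 inside the gene at 1373 bp from an end, and is named here after its value was seen. Of the 87 hosts 77 had no summit within 1000 bp of an end, these among them.

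Of 50 widely studied lncRNA genes listed, 46 matched a RefSeq lncRNA symbol, and 13 of the 46 had a peak of the class (28.3%). The share was 3.28% of all lncRNA genes and 8.05% of those whose names fit none of the symbol classes. The list was drawn from general knowledge of well-characterised transcripts, with earlier results of these data known. Their median fold was 11.3 and 7 of the 13 reached 10. FIRRE, an X-linked RNA of nuclear organisation, stood first with a fold of 55.5 (chrX:131830173-131831516, −log10 q 317). Its summit was 5 bp from its 5′ end and 192664 bp from the nearest protein-coding end, that of STK26. PVT1, the neighbour of MYC on chromosome 8, had a fold of 22.7 (chr8:127794163-127796739, −log10 q 396), 60 bp from an end of the gene, and the widest peak of all 562 at 2577 bp.

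The nuclear RNA genes MALAT1 and NEAT1, neighbours on chromosome 11, had similar folds of 13.5 and 13.8. The MALAT1 summit was 127 bp from the 5′ end. JPX, a gene of the X inactivation centre, had a fold of 13.8, with the summit 9 bp from its 5′ end. MINCR, named as a MYC-induced RNA, reached 11.8 and NORAD, which binds Pumilio proteins, 11.3. Folds below 10 were listed for DLEU1 (8.98), NRAV (8.87), DLEU2 (7.48), KCNQ1OT1 (7.30), MIAT (6.56) and EPIC1 (4.88). DLEU2, the host of miR-15a and miR-16-1, had 2 peaks at its 5′ end, 1207 bp apart. The peak of DLEU1 lay 6 bp from its 5′ end.

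Among the 46, another 4 (HOTAIRM1, TP53TG1, PSMA3-AS1 and UCA1) had a summit at a protein-coding end, and 29 had none at an end. OIP5-AS1 was the nearest of the 29, with a summit of fold 14.7 inside the gene at 1125 bp from an end. LINC-PINT, also of the 29, had a summit of fold 13.6 inside the gene, 77 bp from an annotated start but 35825 bp from an end. That peak is in the class through the end of another lncRNA gene. LINC-PINT is named after its values were seen. H19, HOTAIR, MEG3, CRNDE and CYTOR, named here after their values were seen, had no summit inside the annotated gene and none closer than 23648 bp to an end.

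**Figure D4:**
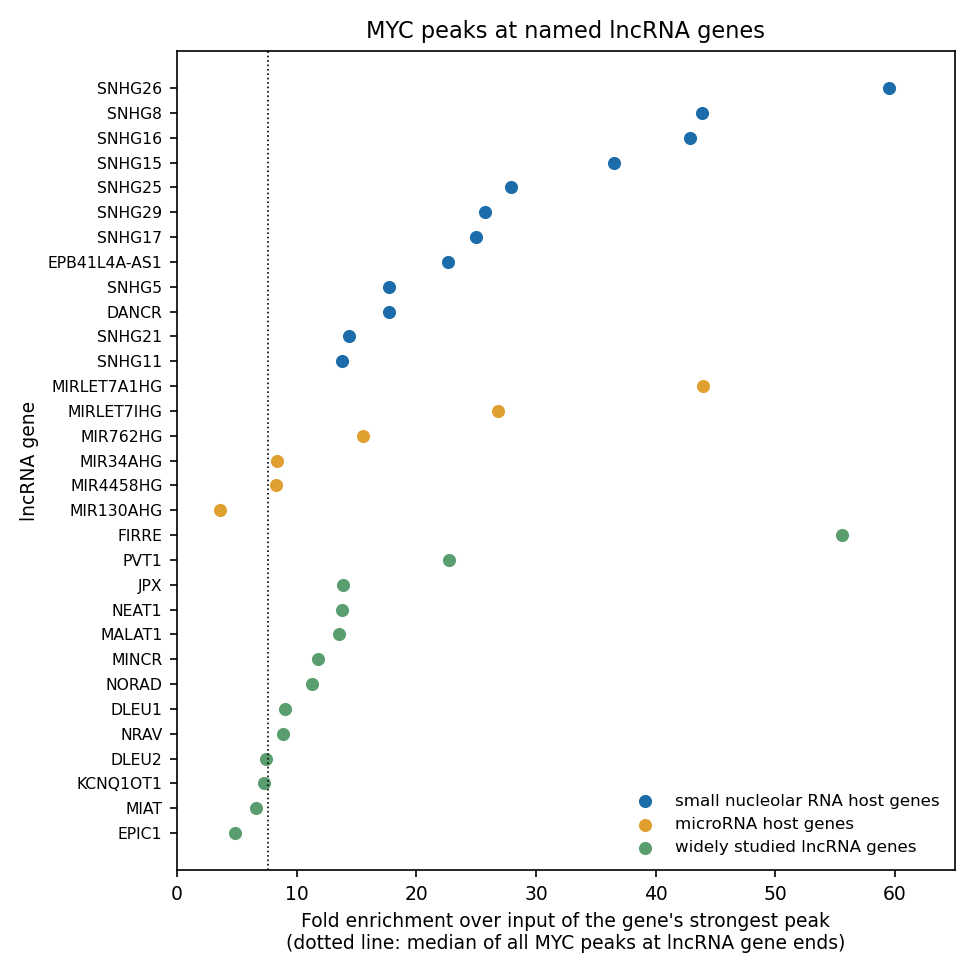
Fold enrichment of the strongest MYC peak at each gene with a peak of the class in 3 lists, 12 small nucleolar RNA host genes, 6 microRNA host genes and 13 widely studied lncRNA genes. All 12 small nucleolar RNA host genes lie right of the dotted line, the median of 7.60 over 562 peaks, whereas the other lists reach to both sides of it.

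By −log10 q the 15 strongest of the 562 peaks had folds of at least 20 in all cases, and 6 of the 15 were at SNHG genes and 5 at LOC genes. A LOC gene had the nearest lncRNA end at 236 of all 562 peaks (42.0%), so their count among the 15 was not above that share. At LOC107984948 (chr1:44029786-44031229, fold 33.9) the summit lay inside SLC6A9, a glycine transporter gene. The nearest end of SLC6A9 and its nearest listed start were both 1183 bp from the summit. At LOC124904038 (chr17:58249536-58250235, fold 24.5) the summit lay 785 bp from the 5′ end. Of the LINC genes, LINC02916 (chr10:43420196-43421265, fold 42.5), LINC01311 (fold 19.1) and LINC02709 (fold 24.8) were the strongest by −log10 q, in that order. GASAL1 on chromosome 8 had a fold of 18.8 at 640 bp from its end. Of genes named as intronic or overlapping transcripts, SLC9A3-OT1 had a fold of 14.1 at 25 bp from its 5′ end and TSPAN9-IT1 a fold of 4.19 at 132 bp from its 3′ end. Over all 4 such genes with a peak the median fold was 12.8 and the highest 18.3, and 3 reached 10.

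Nearly 1 in 4 of the peaks also lay at a start of a protein-coding transcript. The ends of annotated protein-coding genes, on which the definition rests, leave out starts inside the gene, and the promoter table lists some of these. On the chromosomes that the table covers (all but chromosome 8, where starts were not analysed here), 130 of 535 peaks (24.3%, 20.9 to 28.1) lay within 1000 bp of such a start, and 53 within 100 bp. The share over all peaks away from protein-coding ends was 19.6%. The distance limits by themselves place all 130 inside the annotated span of a protein-coding gene, since a start lies within its gene. In 73 of the 130 the protein-coding start was nearer to the summit than the lncRNA end. The median fold of the 130 was 8.28 (7.54 to 9.49), beside 7.35 (6.85 to 7.88) for the 405 others. For these 130 peaks the label of a noncoding gene end is therefore not the sole annotation, and which transcript the binding belongs to cannot be read from the list.

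The strongest example was LOC112267936 (chr5:154754358-154756522, fold 48.1, −log10 q 681), 50 bp from its 5′ end. It lies inside LARP1, which encodes a regulator of messages for ribosomal proteins, and the summit was 407 bp from a LARP1 start although 62635 bp from the nearest end of that gene. At LOC105372817 (chr21:42878730-42879850, fold 41.0) the summit lay 1 bp from a start of WDR4, a subunit of a tRNA methyltransferase, and 174 bp from the noncoding 5′ end. SLC12A9-AS1 (chr7:100852118-100852940, fold 14.7) was 125 bp from a start of SLC12A9, a gene of the cation-chloride cotransporter family. KIF9-AS1 (chr3:47163038-47164851, fold 23.5) was 687 bp from a start of SETD2, a histone methyltransferase gene, and 119172 bp from a start of the KIF9 gene that names it. BRWD1-AS2 (fold 40.4, 228 bp from a BRWD1 start) and LOC105377073 (fold 29.5, 48 bp from a start of SCAP, a sterol sensor) are further cases, named after their values were seen.

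Many divergent and antisense genes were of this kind. For 8 of the 12 divergent genes whose partner has a start in the table, the summit lay within 1000 bp of that start, and for 63 of 118 antisense genes likewise (53.4%, 44.4 to 62.1). The strongest divergent gene was TAF12-DT (chr1:28642921-28643852, fold 28.4). Its summit was 22 bp from its own 5′ end, 167 bp from a start of TAF12, a subunit of the general factor TFIID, and 5035 bp from the annotated end of TAF12. SLC25A28-DT (fold 15.1) and NEMP2-DT (fold 11.5) followed, at 563 and 120 bp from starts of their partners. The antisense summit lay inside the span of the partner gene in 119 of 150 cases (79.3%). EPB41L4A-AS1 was of this kind, but 258331 bp from the nearest listed start of EPB41L4A.

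Most of the peaks were farther from protein-coding genes. The median distance to the nearest protein-coding end was 13250 bp (quartiles 3933 and 42234). The distance was 1 to 2 kb for 81 peaks, 2 to 5 kb for 88, 5 to 50 kb for 264 and over 50 kb for 129, with median folds of 8.54, 7.85, 7.88 and 6.55 in that order. The remote peaks were thus the lowest of the 4 groups, but their quartiles of 4.82 and 8.51 overlapped those of the nearest group, 5.97 and 12.6. The farthest was LINC00662 (chr19:27793095-27794408, fold 11.1), 1411376 bp from UQCRFS1, with the summit 4 bp from its 5′ end. LOC105378477 (fold 9.21), LINC02055 (4.29), LOC102724542 (6.62) and LOC124901810 (8.26) were the next farthest. Inside the span of a protein-coding gene lay 258 of the 562 peaks (45.9%, 41.8 to 50), beside 53.2% of all peaks away from protein-coding ends. Their median fold of 7.69 was close to the 7.44 of peaks outside such spans, and the intervals (7.33 to 8.51 and 6.85 to 8.06) overlapped.

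Bound lncRNA promoters were closer to bound protein-coding promoters than to other lncRNA promoters in base composition and in E-boxes. A summit lay inside an lncRNA promoter window of 300 bases for 185 of the 562 peaks, and 1 window was used per summit. The bound protein-coding windows were drawn from all peaks of the list. A summit near both kinds of start could therefore count in both bound groups, which makes them partly alike by construction. CACGTG was found in 37 of these 185 windows (20%, 14.9 to 26.3), beside 7.27% of all 34961 promoters in the table. It was found in 5.41% of all lncRNA promoters, in 4.60% of those with no summit within 1000 bp, and in 17.0% (15.8 to 18.3) of 3359 protein-coding windows that held a summit. With peaks at protein-coding starts left out, an alternative chosen after seeing the data, the share in bound lncRNA windows was 19.8% (13.8 to 27.7). Base composition was not recomputed without those peaks. CACGCG or CGCGTG was found in 51 windows (27.6%, 21.6 to 34.4), beside 11.4% of all promoters and 26.1% of bound protein-coding ones. The looser CANNTG, which includes CACGTG, was found in 120 of the 185 (64.9%, 57.7 to 71.4), near the 68.7% of all promoters. That was below the 74.8% of all lncRNA promoters and the 77.5% of those with no summit within 1000 bp. In bound protein-coding windows the share was 60.9%.

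CpG content differed in the same way. The median ratio of observed to expected CpG was 0.831 in bound lncRNA windows and 0.889 in bound protein-coding ones, but 0.247 in lncRNA promoters with no summit within 1000 bp. The GC content had medians of 66.3%, 67.0% and 48.0% in that order. The motif shares were not compared at matched CpG content, and their relation to it was not tested. A ratio below 0.4 was found in 23 of the 185 windows, with a median fold of 5.82. FIRRE was among these 23, at a ratio of 0.272 and a fold of 55.5.

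Windows with an E-box had higher median folds. The median fold was 9.84 (quartiles 7.09 and 11.6) for the 37 windows with CACGTG, 9.14 (7.31 and 14.1) for the 45 with CACGCG or CGCGTG alone, and 7.35 (5.53 and 11.3) for the 103 with neither. A fold of at least 10 was reached by 48.6%, 44.4% and 29.1% of them, beside 32.6% of all peaks. The same order held for protein-coding promoters, at 11, 9.54 and 7.65. The quartiles of the groups overlapped widely, and some high peaks had a window with none of these motifs, such as those of LOC105372817 and MIRLET7IHG. The bases of a peak beyond its window were not searched.

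The E-box lay close to the summit where both were in the window. In the 37 lncRNA windows the centre of the nearest CACGTG was a median of 23.5 bp from the summit (quartiles 8.5 and 57.5), and 25 were within 50 bp (67.6%, 51.5 to 80.4). For 571 protein-coding windows the median was 21.5 bp and the share 72.0%. As motif and summit both had to fall in 300 bases, large distances could not occur. In the printed sequences the E-box centre was 0.5 bp from the summit at FIRRE, 5.5 bp at LOC107984948, 48.5 bp at TAF12-DT and 49.5 bp at NORAD.

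**Figure D5:**
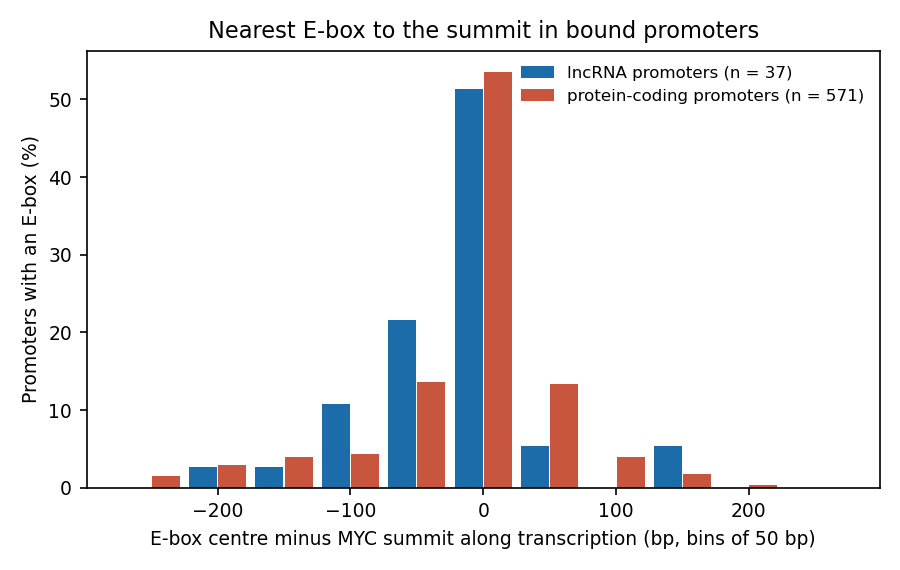
Percentage of bound promoters with an E-box by distance of the nearest E-box centre from the MYC summit, in bins of 50 bp along the direction of transcription, for 37 lncRNA and 571 protein-coding promoters. In both groups the bin centred on the summit is the highest.

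Few lncRNA genes had more than 1 such peak. Of the 596 genes 584 had 1 and 12 had 2, and in 8 of the 12 there was 1 at each end. SLC12A9-AS1 carried folds of 8.80 and 14.7 at opposite ends, 15078 bp apart. EPCAM-DT and MZF1-AS1 were also of this kind, with folds of 3.81 and 6.06 and of 22.9 and 4.26, and are named after their values were seen. Other short genes were rarely involved. A tRNA gene end lay within 1000 bp of 8 of the 562 summits (1.42%, 0.723 to 2.78) and of 0.438% of summits at protein-coding ends. The 8 peaks had folds between 4.19 and 11. A microRNA gene end lay that near to 9 summits (1.60%, 0.845 to 3.02), beside 1.03% at protein-coding ends.

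By chromosome the number of such peaks per 100 lncRNA genes ranged from 1.54 on chromosome 21 (5 peaks) to 7.04 on chromosome 22 (25 peaks). Chromosome X, with 7 peaks, had 1.83. As shares of all peaks on the chromosome these counts were 6.49% of 77 on chromosome 21, 8.56% of 292 on chromosome 22 and 3.61% of 194 on chromosome X. The share over the whole list was 5.72%, so chromosome 21 was not low by this measure.

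The limits of 1000 bp cut through a continuous range of distances. Just inside the lncRNA limit lay peaks at LOC124903749 (990 bp, fold 9.25), LOC101927723 (979 bp, 24.6) and THUMPD3-AS1 (960 bp, 9.15). Just outside it lay summits near ADD3-AS1 (1010 bp, 3.73), LINC01638 (1016 bp, 7.29) and EPC1-AS1 (1043 bp, 13.4). Separate peaks at the promoters of LINC01638 (fold 2.52) and EPC1-AS1 (fold 6.54) were included. At the protein-coding limit SAP30-DT (1006 bp from SAP30, fold 7.77), NRSN2-AS1 (1007 bp from SOX12, 14.8) and PRRT3-AS1 (1008 bp from PRRT3, 13.0) were included. SLCO5A1-AS1 (998 bp, 5.71), ANKHD1-DT (996 bp, 5.17) and PBX3-DT (996 bp, 7.04) were not.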

How the data were processed

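Tools listed in the submitters' processing notes, with no version or role, are MACS2, Bowtie2, cutadapt, Picard and SAMtools, and builds listed there are hg38, hg19 and mm10. How mouse reads entered the scaling and whether the IP libraries were pooled is not given in the sources used here. The authors deposited 1 peak list, in hg38 per its name, with a fold (a ratio of IP to control), −log10 p, −log10 q, a score (not used) and the summit. Positions are printed 1-based. Genes on chromosomes 1 to 22 and X (18177 lncRNA, 19974 protein-coding) came from RefSeq GRCh38.p14, and strand, starts and promoter sequences from its promoter table, which held a start for 62.6% of the lncRNA genes and none on chromosome 8. Distances, medians, shares and motif searches were computed in Python 3.11.15 with pandas 2.3.3 and scipy 1.17.1, and tested on simulated data. Named genes are the 15 strongest peaks by −log10 q, the 3 strongest per symbol class, the listed genes with a peak, the 5 farthest from protein-coding ends and those at the limits. Of these 1 is not reported here. Members and lists were chosen with earlier results of these data known. Alternatives changed windows, thresholds, gene names and motifs.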

Additional observations from a re-analysis of the deposited data

How the results depend on the processing

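No paired analysis was possible because the peak list has no values per library, and for the same reason no replicate could be left out. Of 64 recomputed values 53 stayed within 1.5 times the count or within the interval of the value reported. Among the 53, the share at the 5′ end with any base of the peak counted used the same summits and could not differ. A change of direction was possible only for the log2 ratio of medians, which stayed negative throughout. With lncRNA genes that have names other than LOC symbols 336 peaks remained in the class in place of 562. In the stronger 50% of peaks by −log10 q there were 274, with a median fold of 11.1, 59.1% at a fold of at least 10 and 93.1% at the 5′ end. That set is chosen by −log10 q, so its folds are higher by construction. The share at the 5′ end was 84.8% with an lncRNA window of 2000 bp and 87.0% without the peaks at protein-coding starts, an alternative chosen after seeing the data. The share inside protein-coding spans was 40.2% when peaks had to lie over 5000 bp from protein-coding ends. Of bound lncRNA promoters 44.3% held the E-box or its CG variant, and 64.9% the looser CANNTG. The log2 ratio of the lncRNA median to the protein-coding end median was −0.10 by fold and −0.22 by −log10 q. The interval of this ratio lets only the lncRNA median vary and holds the protein-coding end median fixed. By fold, that interval included positive values in the stronger 50% of peaks (−0.177 to 0.0175) and without LOC symbols (−0.177 to 0.0320). The depth is unknown, so weak sites may be missing from the list, and starts absent from the promoter table were not counted.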
